A study of Mus musculus with 4 samples.

Results

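The enzymes of heme biosynthesis were followed as transcript levels in bone marrow cells enriched on beads against CD117 (KIT), which is carried by hematopoietic stem and progenitor cells. The group carrying inducible HIF-1a, a form of the hypoxia-inducible factor that the series describes as constitutively active, had 2 libraries. The wild type control group had 2 libraries as well, and the strain background of both was C57BL/6, 129X1/SvJ. Age, the inducing agent, the time after induction, the promoter that drives the HIF-1a transgene and whether the libraries of a group came from separate mice are not stated in the labels. P-values therefore measure only how far these libraries differ from one another, which may be technical. The members were the rows whose Entrez identifier maps to Alas1, Alas2, Alad, Uros, Urod, Cpox, Ppox and Fech. All 8 were among the 24415 genes of the deposited count table, and all 8 passed the filter on low counts that left 14043 genes to be tested.

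Heme is built from glycine and succinyl-CoA along a path that starts and ends in mitochondria and runs through the cytosol in between. The opening and rate-limiting step, formation of 5-aminolevulinate, has a pair of isoenzymes. Alas1 serves all cells and is repressed by heme, and Alas2 is the erythroid form, whose mRNA is held back from translation when iron is scarce. Alad joins 5-aminolevulinate molecules into porphobilinogen, Uros closes the tetrapyrrole ring as uroporphyrinogen III, and Urod trims it to coproporphyrinogen III. Cpox and Ppox then oxidise it to protoporphyrin IX, and Fech, ferrochelatase, inserts the iron. The step between Alad and Uros was not analysed here. In humans, loss of ALAS2 function causes X-linked sideroblastic anemia, and erythroblasts are the main site of heme synthesis in bone marrow.

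The promoters of Alas2, Cpox and Urod are shown because these genes had the most negative and the most positive log2 fold changes among the enzymes. The sequences are RefSeq's for GRCm38.p6, on the gene's own strand, and stop before the outermost annotated transcript start. They cover chrX:150547167-150547374 (plus strand) for Alas2, chr16:58669958-58670207 (plus strand) for Cpox and chr4:116994437-116994663 (minus strand) for Urod. Capitals mark letters that match a GATA motif (AGATAA or TGATAA or AGATAG or TGATAG, forms bound by the erythroid factor GATA1) or the core of a hypoxia response element (ACGTG or GCGTG), on either strand.
Alas2: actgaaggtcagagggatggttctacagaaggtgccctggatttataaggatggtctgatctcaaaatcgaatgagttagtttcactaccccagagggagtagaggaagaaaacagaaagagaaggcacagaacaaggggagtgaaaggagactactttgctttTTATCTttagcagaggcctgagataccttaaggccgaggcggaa
Cpox: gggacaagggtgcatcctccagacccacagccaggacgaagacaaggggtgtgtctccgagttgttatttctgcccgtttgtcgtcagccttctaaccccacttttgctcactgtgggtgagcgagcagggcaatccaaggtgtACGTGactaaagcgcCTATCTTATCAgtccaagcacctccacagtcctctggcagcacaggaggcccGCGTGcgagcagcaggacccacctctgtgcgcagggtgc
Urod: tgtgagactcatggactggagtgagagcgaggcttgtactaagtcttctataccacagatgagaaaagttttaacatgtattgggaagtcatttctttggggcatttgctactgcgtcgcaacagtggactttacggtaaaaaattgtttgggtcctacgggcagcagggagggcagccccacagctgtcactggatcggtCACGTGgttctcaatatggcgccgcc

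In these windows Alas2 held 1 GATA match, which starts 86 bases before the RefSeq start, and no hypoxia core. Cpox held a pair of overlapping GATA matches 91 and 86 bases before its start and hypoxia cores 106 and 39 bases before it. Urod held the palindrome CACGTG, which contains the hypoxia core on both strands, 49 bases before its start and no GATA match. RefSeq gave 10 start windows of 250 bases for 7 of the 8 enzymes, with none for Fech. Of the 10 windows, 3 held a GATA match and 7 a hypoxia core. CACGTG lay in the Urod window, in both Alad windows and in a Uros window. Among all 32851 mouse windows of that length, 26.5% held a GATA match, 38.6% a hypoxia core and 6.0% CACGTG. A match is a description of letters and no measure of binding.

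Across the path, no enzyme passed the threshold, and the libraries split into a pattern of 3 kinds. For the other enzymes the groups overlapped, while Alas2 was lower in both inducible HIF-1a libraries than in both wild type libraries and Cpox was higher in both. Such separation was common, since 28.2% of all genes tested were lower and 24.6% higher without overlap of the groups. With edgeR's quasi-likelihood test and Benjamini-Hochberg adjustment over all genes (threshold 0.05), 0 of 8 enzymes were called, against 1.12% of all genes. At an unadjusted p under 0.05 there were 2 (Alas2 and Cpox), against 16.9% of all genes. DESeq2 called the same number, against 6.91% of all genes, while limma-voom called 1 (Alas2), against 1.48%. The median log2 fold change was 0.38 over the enzymes and 0.001 over all genes tested. Levels below are CPM, counts scaled to the TMM library sizes.

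**Figure D1:**
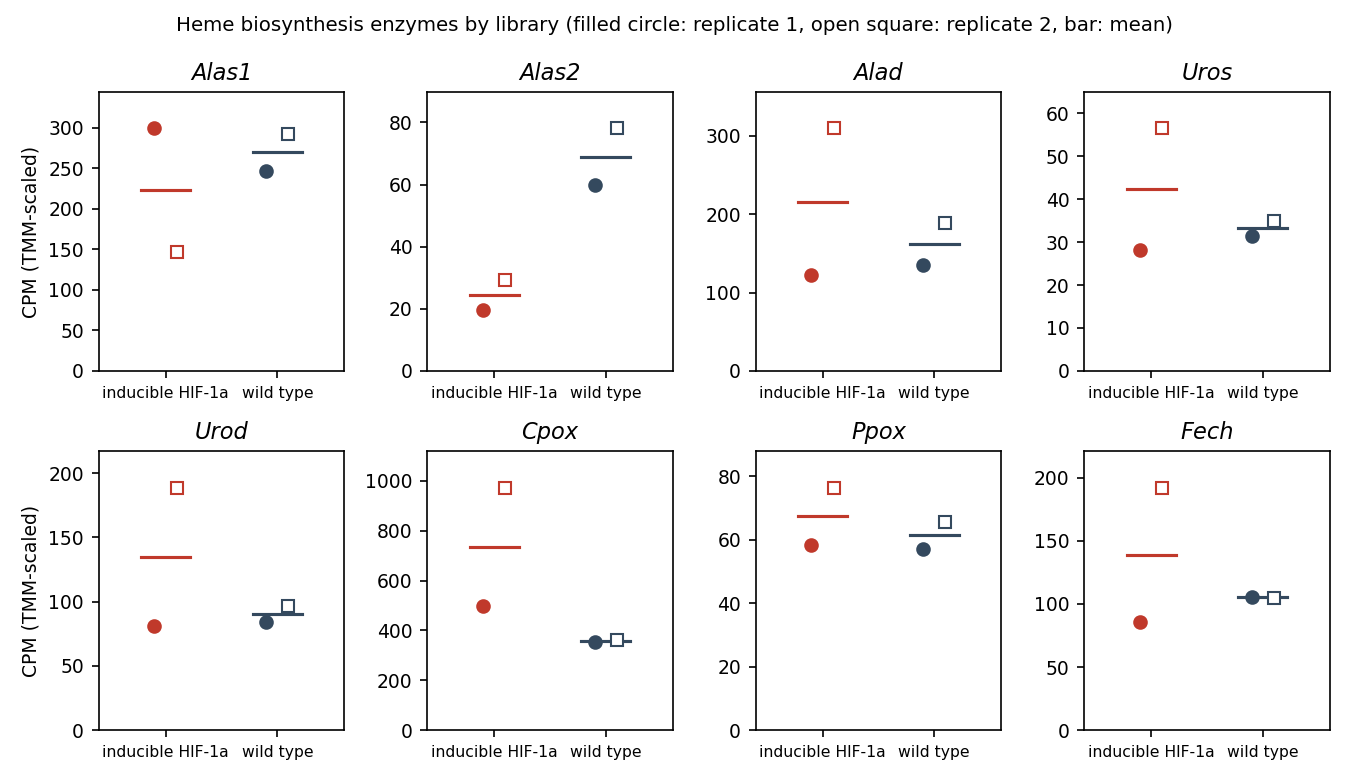
TMM-scaled CPM of the 8 enzymes in each library, in pathway order, with a separate axis for each gene, inducible HIF-1a at the left and wild type at the right of each panel; filled circles are replicate 1, open squares replicate 2 and bars the means of 2 libraries. For Alas2 (lower) and Cpox (higher) the groups do not overlap, and for the other 6 enzymes they do. Of all genes tested, 28.2% were lower and 24.6% higher without overlap.

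The isoenzymes of the opening step differed in their pattern. Alas2 (Entrez 11656; chromosome X, 150547417 to 150570622 in GRCm38) had 506 and 779 counts in the inducible HIF-1a libraries, against 1607 and 1692 counts in the wild type libraries. These are levels of 19.6 and 29.1 CPM in inducible HIF-1a, against 60.0 and 78.1 CPM in wild type. Both inducible HIF-1a libraries were below both wild type libraries, as was the case for 28.2% of all genes tested. The log2 fold change was -1.50 ± 0.27 (SE; edgeR adjusted p = 0.0602), which missed the threshold. In bulk RNA a smaller share of erythroid cells and less Alas2 RNA per erythroid cell cannot be told apart. RefSeq places Alas2 inside the span of the gene Apex2, which had 482 and 732 counts in inducible HIF-1a and 624 and 600 counts in wild type. Whether the counting kept the strands apart is not stated.

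Alas1 (Entrez 11655; chromosome 9, 106233455 to 106247954) had 299 and 147 CPM in the inducible HIF-1a libraries, against 247 and 292 CPM in the wild type libraries. Replicate 1 of inducible HIF-1a was the highest of the 4 libraries and replicate 2 the lowest, so the groups overlapped. The log2 fold change was -0.27 ± 0.33 (edgeR adjusted p = 0.713). Alas1 was the only enzyme with a lower level in replicate 2 than in replicate 1 of inducible HIF-1a, at 0.491-fold. Within a library, where scaling plays no part, the ratio of Alas2 to Alas1 counts was 0.0655 and 0.199 in inducible HIF-1a, against 0.243 and 0.267 in wild type. The ratio was lower in both inducible HIF-1a libraries, far lower in replicate 1 and close to wild type in replicate 2.

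For the cytosolic enzymes, as for Cpox, Ppox and Fech below, replicate 2 of inducible HIF-1a stood above the other libraries. Alad (Entrez 17025; chromosome 4, 62505984 to 62520063), which makes porphobilinogen, had 123 and 309.6 CPM in inducible HIF-1a, against 136 and 189 CPM in wild type. Uros (Entrez 22276; chromosome 7, 133686142 to 133710467), which closes the ring, had 28.3 and 56.5 CPM in inducible HIF-1a, against 31.5 and 35.0 CPM in wild type. Urod (Entrez 22275; chromosome 4, 116989965 to 116994436), the decarboxylase, had 81.4 and 188.7 CPM in inducible HIF-1a, against 84.1 and 96.9 CPM in wild type. In each of Alad, Uros and Urod, replicate 1 of inducible HIF-1a was the lowest and replicate 2 the highest of the 4 libraries, and the groups overlapped. The log2 fold changes were 0.41 ± 0.42 for Alad, 0.35 ± 0.33 for Uros and 0.58 ± 0.37 for Urod, with edgeR adjusted p-values of 0.652, 0.63 and 0.479. Uros shares 1135 bases of its span with the gene Bccip in the RefSeq table.

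Cpox stood apart among the later steps. Cpox (Entrez 12892; chromosome 16, 58670208 to 58680391), coproporphyrinogen oxidase of the mitochondrial intermembrane space, had 12836 and 26011 counts in inducible HIF-1a, against 9434 and 7831 counts in wild type. Its level was 497 and 973 CPM in inducible HIF-1a, against 352 and 361 CPM in wild type. Both inducible HIF-1a libraries were above both wild type libraries, as were 24.6% of all genes tested. The log2 fold change was 1.04 ± 0.32 (edgeR adjusted p = 0.185), which did not pass. Replicate 1 of inducible HIF-1a was 1.39-fold and replicate 2 was 2.73-fold the wild type mean, while the wild type libraries differed by 1.03-fold.

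The closing steps did not follow Cpox. Ppox (Entrez 19044; chromosome 1, 171276991 to 171281193), protoporphyrinogen oxidase, had 58.4 and 76.4 CPM in inducible HIF-1a, against 57.1 and 65.7 CPM in wild type. It had the smallest log2 fold change in size of the 8 enzymes, 0.13 ± 0.21 (edgeR adjusted p = 0.79), and overlapping groups. Fech (Entrez 14151; chromosome 18, 64456542 to 64489098), the ferrochelatase, had 85.7 and 192 CPM in inducible HIF-1a, against 106 and 105 CPM in wild type. Replicate 1 of inducible HIF-1a was below the wild type pair and replicate 2 above it. The log2 fold change of Fech was 0.40 ± 0.36 (edgeR adjusted p = 0.607).

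**Figure D2:**
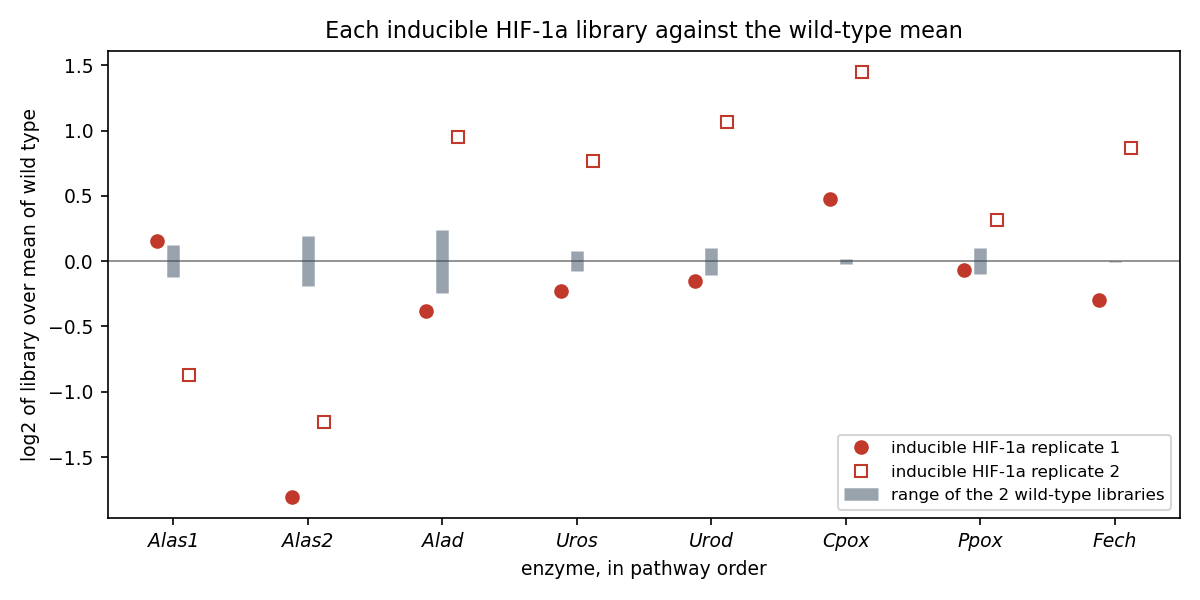
log2 of each inducible HIF-1a library over the mean of the wild type libraries (vertical axis) for the 8 enzymes in pathway order; filled circles are replicate 1, open squares replicate 2 and grey bars the range of the 2 wild type libraries. Replicate 2 lies between 0.32 and 1.45 for the enzymes from Alad to Fech, at -0.87 for Alas1 and at -1.23 for Alas2, while replicate 1 lies between -0.39 and 0.48 apart from Alas2 at -1.80.

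The inducible HIF-1a libraries differed from each other more than the wild type libraries did. Between the inducible HIF-1a libraries, the median size of the log2 difference was 1.01 over the 8 enzymes and 0.39 over all genes tested. Between the wild type libraries it was 0.20 over the enzymes and 0.21 over all genes. Replicate 2 of inducible HIF-1a was above every other library for 6 enzymes, against 34.3% of all genes. It exceeded replicate 1 more than 2-fold for 3 enzymes, Alad (2.52-fold), Urod (2.32-fold) and Fech (2.24-fold), against 5.31% of all genes. Uros (1.998-fold) and Cpox (1.96-fold) lay just under that mark, Alas2 was at 1.49-fold and Ppox at 1.31-fold.

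Likeness among the enzymes was measured as the root mean square difference of their log2 CPM, each centred on its own mean, over the 4 libraries. Alad, Uros, Urod and Fech had nearly the same profile, with differences between 0.083 (Uros and Fech) and 0.183 (Alad and Fech). Cpox differed from those genes by 0.274 to 0.397 and Ppox by 0.228 to 0.358. Alas1 differed from them by 0.781 to 0.898 and Alas2 by 0.908 to 1.01. Alas1 and Alas2 differed from each other by 0.81. The points share their libraries, so these values describe 4 libraries and carry no test.

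Among 11573 other genes with a mean log2 CPM of at least 1, those most like Alas2 were Slc2a4, Fcer2a, Tmcc2, Gpr137c and Npy1r, with differences of 0.027 to 0.153. Slc2a4, the closest, had 2.25 and 3.48 CPM in inducible HIF-1a and 6.83 and 9.05 CPM in wild type. Those most like Alas1 were Abca2, Septin6, Pak1, Slco4a1 and Arid5a, with differences of 0.028 to 0.054. Those most like the mean profile of the enzymes from Alad to Fech were 2310022B05Rik, Nmnat3, Daam1, Ufsp1 and Paqr9, with differences of 0.02 to 0.032. Daam1, for example, had 107 and 207 CPM in inducible HIF-1a and 109 and 122 CPM in wild type.

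Levels were compared between enzymes per kilobase of annotated exon (the union over GENCODE M21 protein-coding transcripts, which may be longer than the transcripts present). On that scale of CPM per kilobase, Cpox had a mean of 237 in inducible HIF-1a and 115 in wild type, and Alad 170.1 in inducible HIF-1a and 128 in wild type. Urod followed with 90.7 in inducible HIF-1a and 60.8 in wild type, and Alas1 with 53.2 in inducible HIF-1a and 64.3 in wild type. Ppox had 36.0 in inducible HIF-1a and 32.8 in wild type. Below it were Fech with 18.9 in inducible HIF-1a and 14.3 in wild type, and Uros with 14.8 in inducible HIF-1a and 11.6 in wild type. Alas2 was the lowest in inducible HIF-1a, with a mean of 12.0, and was level with Ppox in wild type, with 33.9. In wild type the neighbours Alad and Cpox, Alas1 and Urod, and Alas2 and Ppox had overlapping library values. In inducible HIF-1a all neighbours but Ppox and Fech overlapped, including Alas2 (9.62 and 14.3) with Uros (9.85 and 19.7).

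Ratios within a library set the enzymes against one another without any scaling. The ratio of Cpox to Fech counts was 5.80 and 5.06 in inducible HIF-1a, against 3.34 and 3.44 in wild type. Both inducible HIF-1a libraries were above both wild type libraries. The ratio of Alas2 to Cpox was 0.0394 and 0.0299 in inducible HIF-1a, against 0.170 and 0.216 in wild type. The ratio of Alas2 to Fech was 0.229 and 0.152 in inducible HIF-1a, against 0.568 and 0.744 in wild type. Against both enzymes Alas2 was lower in each inducible HIF-1a library than in each wild type library. For Cpox this order follows from the levels given above, lower for Alas2 and higher for Cpox, and adds nothing to them. The ratio of Uros to Fech was 0.330 and 0.294 in inducible HIF-1a and 0.298 and 0.334 in wild type, which overlapped. Alad and Ppox against Fech overlapped as well. Urod to Fech was also higher in both inducible HIF-1a libraries, at 0.9503 and 0.9819 against 0.7967 and 0.9235 in wild type. Unlike for Cpox to Fech, that gap between the groups was smaller than the gap between the wild type libraries.

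Leaving out single libraries showed which values rest on replicate 2 of inducible HIF-1a. In these fits 1 library stands alone in its group and is assumed to vary like the pair of the other group. Without replicate 1 of inducible HIF-1a, 7 of 8 enzymes were called, 5 higher (Alad, Uros, Urod, Cpox and Fech) and 2 lower (Alas1 and Alas2), against 12.4% of all genes higher and 19.7% lower. Without replicate 2 of inducible HIF-1a, Cpox was called higher and Alas2 lower, against 3.84% of all genes higher and 7.64% lower. Without either wild type library no enzyme was called, against 0.0138% of all genes without replicate 1 and 0% without replicate 2 of wild type. In each of these fits 1 enzyme was under an unadjusted p of 0.05, against 7.25% of all genes without replicate 1 and 4.83% without replicate 2 of wild type. Alas2 kept a negative log2 fold change, of -1.78 to -1.25, and Cpox a positive one, of 0.52 to 1.45, under each of these omissions. The other 6 enzymes changed sign without replicate 2 of inducible HIF-1a. Alad then had a log2 fold change of -0.37, Fech of -0.26, Uros of -0.20, Urod of -0.12 and Ppox of -0.04, and Alas1 of 0.19.

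**Figure D3:**
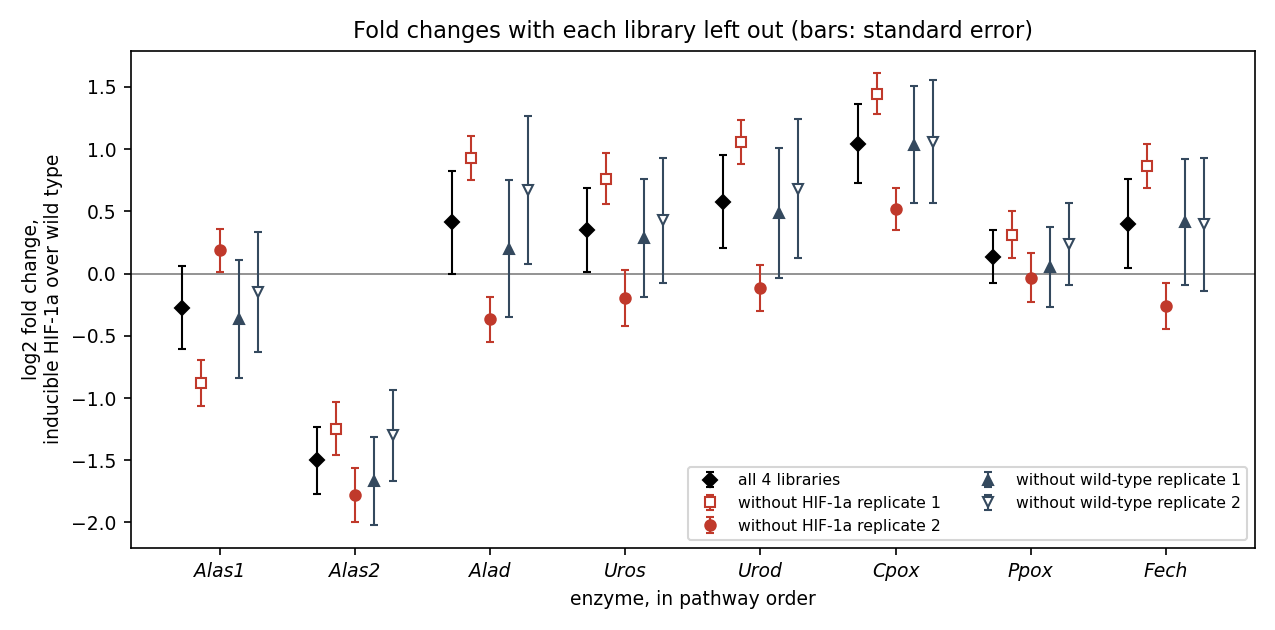
log2 fold change of each enzyme, inducible HIF-1a over wild type, with all 4 libraries and with each library left out in turn; bars are standard errors. Alas2 stays between -1.78 and -1.25 and Cpox between 0.52 and 1.45, and the other 6 enzymes cross 0 when replicate 2 of inducible HIF-1a is left out.

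Genes that supply, move or degrade heme and its iron were taken from a list of carriers, exporters, degrading enzymes and regulators, of which 28 were tested. Tfrc rose and Hmox1 fell, and no other gene of the list was called (background 0.114% higher and 1% lower); without either wild type library none was called. Without replicate 1 of inducible HIF-1a, 16 genes of the list were called higher and 2 lower (background 12.4% and 19.7%), and without replicate 2, 3 were called higher and 3 lower (background 3.84% and 7.64%). Tfrc, the transferrin receptor that brings iron into erythroblasts, had 2262 and 3168 CPM in inducible HIF-1a, against 663 and 522 CPM in wild type. Its log2 fold change was 2.20 ± 0.26 (edgeR adjusted p = 0.019). Hmox1, the heme-degrading oxygenase, had 2.21 and 0.748 CPM in inducible HIF-1a, against 21.8 and 21.9 CPM in wild type, a log2 fold change of -3.89 ± 0.50 (edgeR adjusted p = 0.0235). For both genes the groups were well apart. Hmox1 is also a gene of macrophages, whose markers were lower in inducible HIF-1a (values below), and the part of these cells in its fall was not tested.

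The next genes of the list by p did not pass. Tfr2, the second transferrin receptor, had 68.6 and 105 CPM in inducible HIF-1a, against 34.6 and 34.7 CPM in wild type (log2 fold change 1.32 ± 0.25, edgeR adjusted p = 0.072). Bach1, a repressor that heme releases from DNA, had 163 and 164 CPM in inducible HIF-1a, against 233 and 243 CPM in wild type. Atpif1, an inhibitor of the mitochondrial ATP synthase that is needed for Fech activity in zebrafish and mouse cells, had 38.7 and 35.4 CPM in inducible HIF-1a, against 23.8 and 23.7 CPM in wild type. Steap3, the endosomal ferrireductase, had 52.0 and 90.5 CPM in inducible HIF-1a, against 42.2 and 40.9 CPM in wild type. Over the list the median log2 fold change was 0.34, with 21 positive and 7 negative values.

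Several of these genes had the profile of Alad and Fech. Replicate 2 of inducible HIF-1a was above replicate 1 for 24 of the 28 genes (background 49.3%) and more than 2-fold above it for 5 (background 5.31%). These were Slc25a38, Blvra, Blvrb, Fam210b and Slc11a2, named after their values were seen. Slc25a38, the mitochondrial carrier that imports glycine for 5-aminolevulinate synthesis, had 33.4 and 93.0 CPM in inducible HIF-1a, against 39.6 and 39.1 CPM in wild type. Of 14 tested genes of iron-sulfur cluster assembly, which serves Fech and the iron sensors, 0 were called by edgeR and 0 by DESeq2 or limma-voom, with 1 (Iba57) at an unadjusted p under 0.05 (background 1.12%, 6.91%, 1.48% and 16.9%, in the same order). Iba57 had 56.3 and 107 CPM in inducible HIF-1a, against 43.9 and 45.9 CPM in wild type. The median log2 fold change of that list was 0.30. Without replicate 1 of inducible HIF-1a, 5 genes of that list were called, all higher (background 12.4% higher and 19.7% lower).

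**Figure D4:**
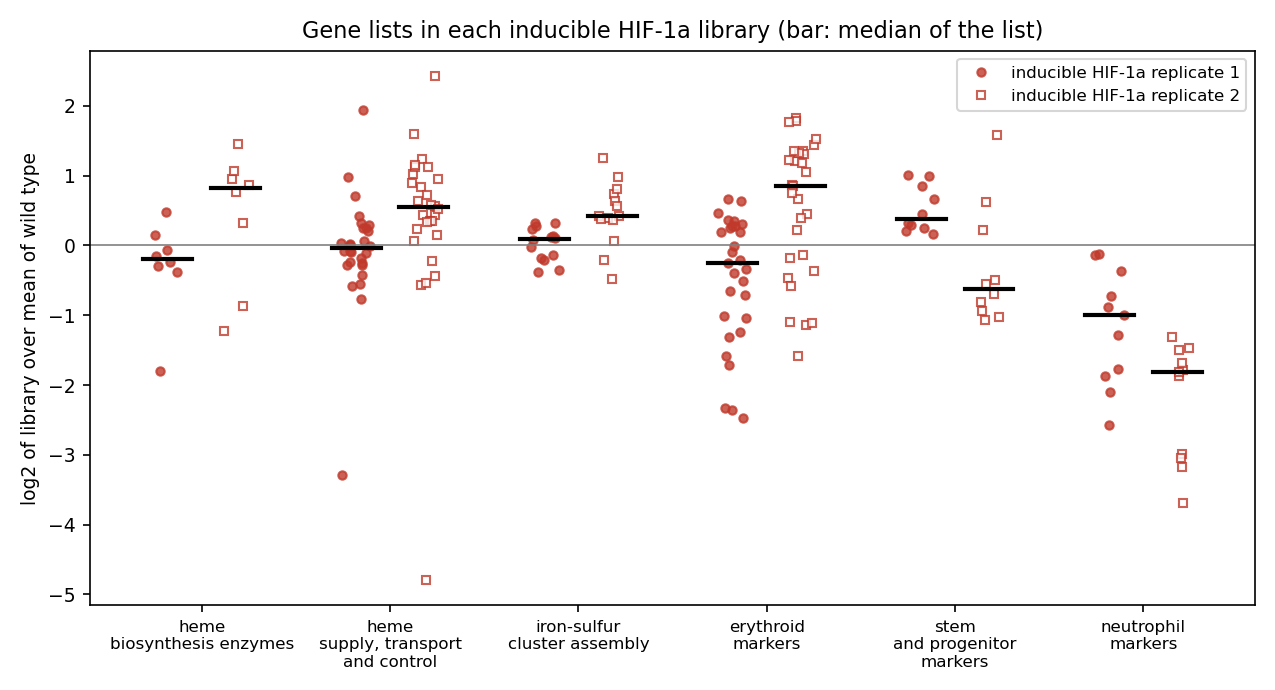
log2 of each inducible HIF-1a library over the wild type mean for the tested genes of 6 lists; filled circles are replicate 1, open squares replicate 2 and black bars the list's median. The medians of replicates 1 and 2 are -0.19 and 0.82 for the heme enzymes, -0.25 and 0.85 for erythroid markers, 0.38 and -0.63 for stem and progenitor markers and -1.001 and -1.82 for neutrophil markers.

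Erythroid markers were read beside the enzymes. The 30 tested rows hold 29 distinct ones, since Hba-a1 and Hba-a2 have identical counts. The unadjusted edgeR p was under 0.05 for 17 of the 30 rows, in both directions, against 16.9% of all genes. DESeq2 called 3 rows higher and 5 lower, against 6.91% of all genes in either direction. By edgeR's adjusted p no row was called higher, and the α-globin row was called lower, against a background of 0.114% higher and 1% lower. This pair of α-globin genes had 209 and 385 CPM in inducible HIF-1a, against 1097 and 1225 CPM in wild type (log2 fold change -1.97 ± 0.31, edgeR adjusted p = 0.0434). That call was lost with total count scaling, size factors of the DESeq2 type, a minimum of 1 CPM in each of the 4 libraries, the 10 most abundant genes left out, or either wild type library left out. The β-globin gene Hbb-bs had 684 and 1555 CPM in inducible HIF-1a, against 3475 and 3395 CPM in wild type, and Hbb-bt 645 and 1520 CPM in inducible HIF-1a, against 3321 and 3264 CPM in wild type. Tmcc2 had 14.8 and 20.9 CPM in inducible HIF-1a, against 41.4 and 48.3 CPM in wild type. The β-globin genes are near-identical copies, so the split of reads between them is uncertain. None of these β-globin and Tmcc2 differences passed (edgeR adjusted p = 0.0729 to 0.123).

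Other erythroid genes ran the other way. Tal1, a transcription factor of early erythroid cells, had 195 and 309 CPM in inducible HIF-1a, against 134 and 116 CPM in wild type (log2 fold change 1.01 ± 0.26, edgeR adjusted p = 0.132). Named after their values were seen, Gata1 had 107 and 224 CPM in inducible HIF-1a, against 101 and 76.9 CPM in wild type, and Klf1 had 52.7 and 96.2 CPM in inducible HIF-1a, against 46.7 and 36.8 CPM in wild type. Of the 29 distinct rows, 10 were higher in both inducible HIF-1a libraries than in both wild type libraries (background 24.6%) and 7 were lower (background 28.2%). Replicate 2 of inducible HIF-1a was above replicate 1 for 28 of them (background 49.3%), and more than 2-fold above it for 17 (background 5.31%). Without replicate 1 of inducible HIF-1a, 17 of the 30 rows were called higher and 7 lower (background 12.4% and 19.7%). Without replicate 2, 2 were called higher and 11 lower (background 3.84% and 7.64%). Without either wild type library none was called. The part of erythroid cell content in the enzymes' levels was not tested.

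Set against other genes of red cell precursors within the same library, Alas2 gave opposite orders. The ratio of Alas2 to Hba-a1 (α-globin) was 0.0939 and 0.0757 in inducible HIF-1a, against 0.0547 and 0.0638 in wild type, so that it was higher in both inducible HIF-1a libraries. Against Tfrc, Alas2 was at 0.00867 and 0.0092 in inducible HIF-1a and at 0.0905 and 0.150 in wild type, so that it was lower in both inducible HIF-1a libraries. The order against Tfrc follows from the levels given above, lower for Alas2 and higher for Tfrc, and adds nothing to them.

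Total counts were 24852965 and 26373177 in the inducible HIF-1a libraries and 27539149 and 22221798 in the wild type libraries. Hif1a itself had 155 and 113 CPM in inducible HIF-1a, against 179 and 168 CPM in wild type, so it was lower in both inducible HIF-1a libraries. The labels do not say whether reads of the transgene are among these counts, so Hif1a gave no check of the group labels. Kit, the selected marker, had 347 and 390.4 CPM in inducible HIF-1a, against 268 and 242 CPM in wild type. Summed over 10 B cell markers the level was 19.6 and 7.26 CPM in inducible HIF-1a, against 569 and 542 CPM in wild type, with Pax5 at 0 in both inducible HIF-1a libraries. Over 13 monocyte and macrophage markers it was 208 and 99.9 CPM in inducible HIF-1a, against 515 and 556 CPM in wild type. Over 11 neutrophil markers it was 14506 and 6609.7 CPM in inducible HIF-1a, against 21580.5 and 20125 CPM in wild type. Over 6 mast cell and basophil genes, the tested ones of 8 listed, it was 173 and 116 CPM in inducible HIF-1a, against 249 and 268 CPM in wild type. Of these, named after their values were seen, Hdc had 70.0 and 37.0 CPM in inducible HIF-1a, against 124 and 140 CPM in wild type. Cpa3 had 36.0 and 26.3 CPM in inducible HIF-1a, against 38.3 and 36.5 CPM in wild type. Like Alas1, 8 of 10 stem and progenitor markers were lower in replicate 2 than in replicate 1 of inducible HIF-1a. Replicate 2 was above replicate 1 for 49.3% of all genes. It was above for 1 of 10 B cell, 2 of 13 monocyte and macrophage, 0 of 11 neutrophil and 1 of 6 mast cell and basophil genes. The stem and progenitor markers summed to 646 and 532 CPM in inducible HIF-1a, against 497 and 491 CPM in wild type. Without Kit the other 9 summed to 298 and 141 CPM in inducible HIF-1a, against 229 and 249 CPM in wild type, so that replicate 1 was then above wild type and replicate 2 below it. The part of these cells in the enzymes' levels was not tested.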

How the data were processed

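RNA sequencing counts of 4 mouse libraries were used. The deposited table holds raw counts per Entrez gene; the submitters' processing notes list mm10 as the build and TopHat, bcl2fastq, edgeR and CASAVA 1.8 as software. How reads were assigned to genes, and whether by strand, is not stated in the labels. Columns were tied to libraries by the names in the labels. Of the 24415 identifiers, 81 had no symbol in RefSeq (GRCm38.p6, the same assembly as mm10) and stayed in the tests. Genes were filtered with filterByExpr (minimum count 10), scaled by TMM and tested in R 4.3.3 with edgeR 4.0.16 (glmQLFit, glmQLFTest, no block), with Benjamini-Hochberg adjustment over all genes and a threshold of 0.05. Log2 CPM for profiles used a prior count of 1. Alternatives were other scalings and filters, DESeq2 1.42.0, limma-voom (limma 3.58.1), the 10 most abundant genes left out, a replicate block and each library left out. The fit was also run on simulated data in which both groups had the same spread, and the outcome is not reported here. In the data the spread (biological coefficient of variation) was 33.4% in inducible HIF-1a and 15.1% in wild type. That run therefore does not bear on groups of unequal spread.

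The genes named are the 8 enzymes and the called and lowest-p members of each pathway list, up to 6 a list. Named too are the 5 genes nearest each of 3 profiles, and Hif1a as a planned check of the labels, which its values did not give. Outside that rule are Kit, the selected marker, Apex2 and Bccip, which overlap enzymes, Pax5, picked after its values were seen for being at 0, and those marked as chosen after their values were seen. The enzymes and lists were chosen with earlier results of these data known. Depth was 22221798 to 27539149 counts, and each enzyme had at least 506 counts in every library.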

Additional observations from a re-analysis of the deposited data

How the results depend on the processing

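Every enzyme's log2 fold change kept its direction under each of the other scalings, filters and tools, and with the replicate block. Directions turned only without inducible HIF-1a replicate 2, where Alas1 reached 0.19, Alad -0.37, Uros -0.20, Urod -0.12, Ppox -0.035 and Fech -0.26. Over the omissions of single libraries the values ran from -0.88 to 0.19 for Alas1, -0.37 to 0.93 for Alad, -0.20 to 0.76 for Uros, -0.12 to 1.06 for Urod, -0.035 to 0.31 for Ppox and -0.26 to 0.87 for Fech. Alas2 was called in 6 of 13 alternatives (adjusted p 9.44e-14 to 0.895) and Cpox in 4 of 13 (3.35e-17 to 0.985). The number of enzymes called, 0 with all libraries and the TMM scaling, was 2 with no filter, 2 with DESeq2 and 1 with limma-voom, and 0 to 7 with single libraries left out. Among heme supply, transport and control genes 2 were called, against 1 with the stricter filter (at least 1 CPM in every library) and 0 to 18 with single libraries left out. Iron-sulfur cluster assembly genes had 0 to 5 called in those omissions. Erythroid markers had 2 rows called, against 0 with size factors of the DESeq2 type, total count scaling, the stricter filter or the 10 most abundant genes left out, 8 with no filter, 8 with DESeq2 and 0 to 24 with single libraries left out. Over all genes 157 were called, against 97 with total count scaling, 747 with no filter, 78 with the stricter filter, 971 with DESeq2 and 0 to 4669 with single libraries left out. Genes tested numbered 17705 with no filter, 11699 with the stricter filter and 14043 with DESeq2, limma-voom and the other scalings. DESeq2 called 6.91% of all genes and limma-voom 1.48%. The stricter filter left out Hmox1, which had 0.748 CPM in inducible HIF-1a replicate 2, so its call was not tried there. The cause of the other differences was not tested.

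The labels do not say that equal replicate numbers pair libraries. Across 11820 genes with an average log2 CPM (edgeR) of at least 1 the difference between replicates 1 and 2 in inducible HIF-1a had a correlation of 0.075 with that in wild type. With the replicate block 1 of 8 enzymes (Alas2), 6 of 30 erythroid rows and 381 of 14043 genes in all were called. Each enzyme had at least 506 counts in every library.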
